A study of Mus musculus with 7 samples.

Results

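The report covers 10 genes of glucose uptake, glycolysis and lactate exchange, namely Slc2a1, Hk1, Hk2, Pfkl, Pfkm, Pfkp, Pkm, Ldha, Ldhb and Slc16a1. They were picked by gene symbol from the 49315 gene identifiers counted, of which 48970 carried a symbol. Each of the 10 symbols matched 1 identifier, and all 10 genes were among the 18352 genes with enough counts to be tested. RNA was sequenced from 7 primary mouse oligodendroglial cultures, 4 from wildtype pups (control) and 3 from Klf13-knockout pups (knockout). Klf13 encodes a zinc finger transcription factor of the Krüppel-like family, and the knockout allele is constitutive, so that every cell type of a knockout culture lacks it. Cells of both groups came from brains of newborn mice (P0 to P3) of both sexes, were shaken off mixed glial cultures, depleted of microglia and kept for 6 days in SATO medium containing the thyroid hormones T3 and T4. The libraries are labelled biological replicates, but neither the labels nor the methods say how many pups stand behind each, so that p-values measure the spread between these cultures.

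Glycolysis splits glucose into pyruvate in the cytosol and yields ATP without oxygen. Hexokinase, phosphofructokinase and pyruvate kinase catalyse its irreversible steps, and lactate dehydrogenase interconverts pyruvate and lactate. Oligodendrocytes are known for taking up glucose, using part of its carbon for the lipids of myelin, and releasing lactate that axons can burn.

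The libraries held between 24507471 and 59596479 counts on genes, and the 10 genes between 382 counts (Hk2 in knockout replicate 1) and 52124 counts (Pkm in knockout replicate 2). Klf13 itself lay between 10670 and 12000 normalized counts in the controls and between 802 and 961 in the knockouts, so that no library went against its label. Normalized counts put every library on the mean of the scaled library sizes. The oligodendroglial label was checked against marker lists: all 11 markers of myelinating oligodendrocytes passed the test as lower in the knockout, with a summed level of 1084330 to 1246840 normalized counts in controls and 303973 to 350182 in knockouts. Of 10 markers of oligodendrocyte precursor cells, 2 were higher (173668 to 182499 against 203707 to 213875). Of 5 markers of the whole lineage, 1 was lower (94394 to 112340 against 82433 to 106866).

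The lactate dehydrogenase subunit gene Ldhb and the phosphofructokinase subunit gene Pfkm were higher in knockout cultures, by 68.0% and 38.2% of the control mean. Slc2a1, the gene of the glucose transporter GLUT1, was lower by 21.7% (percent change -21.7). The other 7 genes did not pass. Thus 2 of 10 genes were higher and 1 was lower by edgeR's quasi-likelihood test (threshold 0.05 on the adjusted p), where 11.6% of all 18352 tested genes were higher and 12.2% lower. In the same 3 genes the libraries of the groups did not overlap, which held for 18.3% of all tested genes upwards and for 18.0% downwards. The median log2 fold change was -0.01 over the 10 genes and -0.0037 over all tested genes. The study also asked for a log2 fold change of 1 or more in size, which 3.97% of all tested genes met upwards and 3.08% downwards. The highest absolute value among the 10 genes was 0.75, so that 0 of 10 met it, at an adjusted or an unadjusted p, in edgeR or in DESeq2. In these bulk samples, fewer cells of a type and less RNA per cell cannot be told apart.

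**Figure D1:**
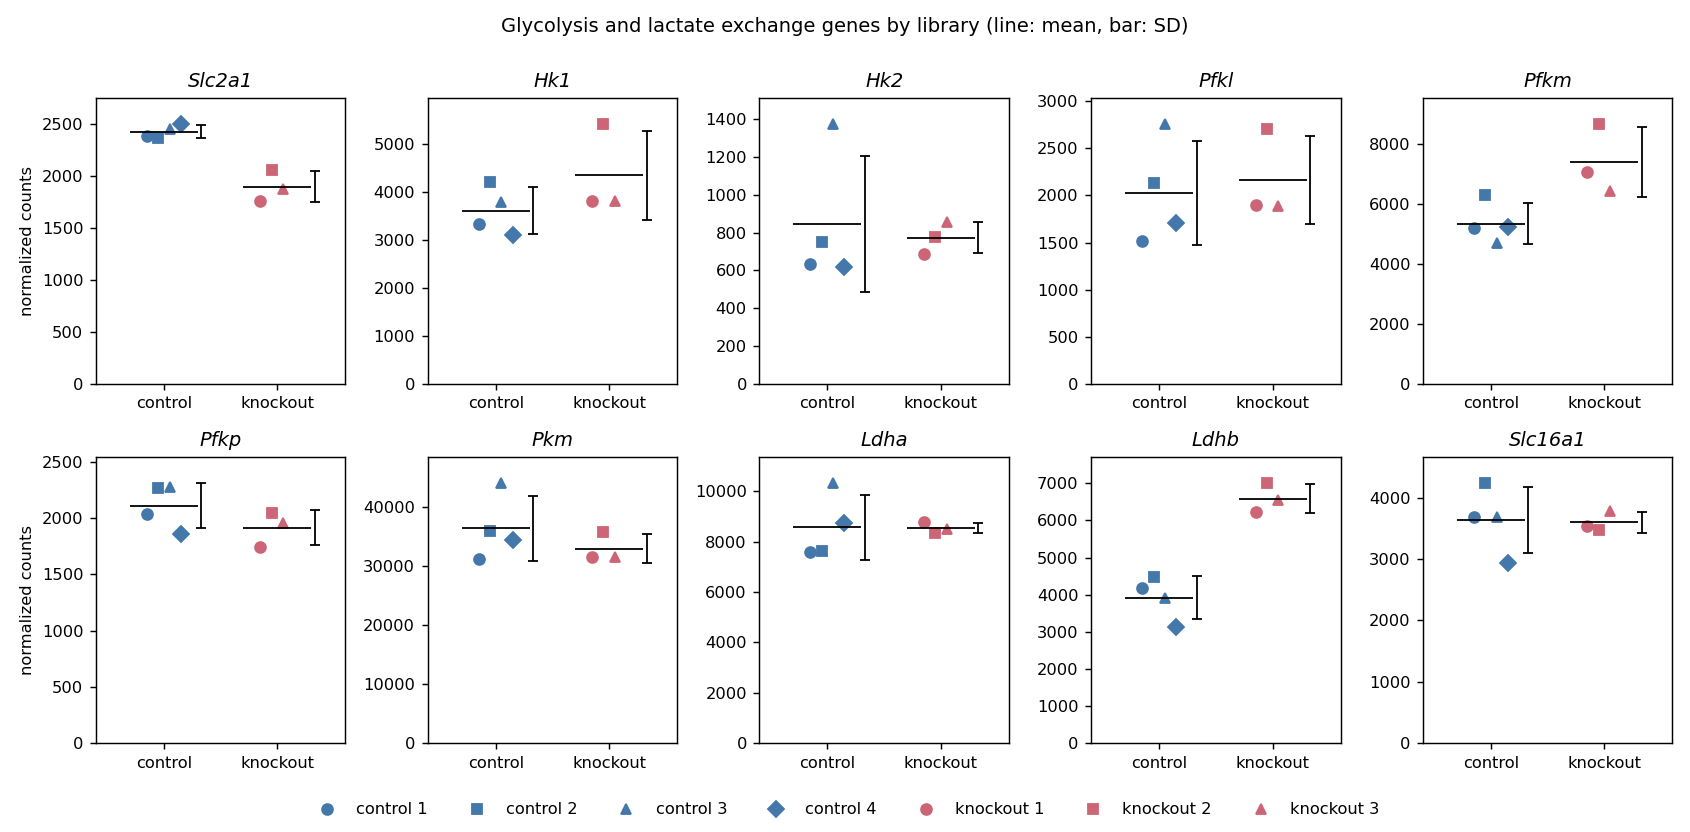
Normalized counts (y axis, from 0) of the 10 genes in the 4 control and 3 knockout libraries, with the symbol giving the replicate number, the line the group mean and the bar the SD. All 3 knockout points lie above all control points in Ldhb and Pfkm and below them in Slc2a1, and the groups overlap in the other 7 genes.

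Glucose enters oligodendroglia largely through GLUT1, the facilitative transporter encoded by Slc2a1 on chromosome 4 of GRCm38 from 119108711 to 119137983 (plus strand). Slc2a1 had 2386, 2367, 2451 and 2506 normalized counts in control replicates 1 to 4. Knockout replicates 1 to 3 had 1759, 2060 and 1880. The controls lay close together and every knockout lay below every control. The mean fell from 2427 ± 63.4 (SD, n = 4) to 1900 ± 152 (SD, n = 3), with a log2 fold change of -0.35 (SE 0.07, 95% confidence interval -0.51 to -0.20, adjusted p = 0.00981 in edgeR's quasi-likelihood test). Without knockout replicate 1, the library with the fewest counts, the log2 fold change was -0.29 and the adjusted p 0.0504, and over all 21 alternatives the adjusted p ranged from 0.000216 to 0.421. An antisense gene, Gm12868, shares 105 exon bases with Slc2a1 but held at most 16.0 normalized counts in any library.

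Because the deleted factor binds GC-rich DNA, the stretch before the transcription start was searched for its motif. The study's methods give the KLF motif as any of 6 runs of letters, which are CCGCCC, then CCACCC, then CCTCCC, and likewise ACGCCC, then ACACCC, then ACTCCC, and the core of the hypoxia response element, ACGTG, was searched beside it because glycolysis genes are known targets of hypoxia-inducible factors. Both strands were read, and matches may overlap. RefSeq gives 16 starts for the 10 genes on GRCm38.p6, and of the 250-base windows before them 13 held a KLF match and 7 an ACGTG match, whereas 72.6% and 16.6% of all 32851 promoter windows of that length did. A match is a run of letters and was not tested for binding. The Slc2a1 stretch is shown because the gene changed. It lies at chr4:119108495-119108710 on the plus strand, is cut to the 216 bases before the first annotated exon, and has its 4 KLF matches in capitals. The whole 250-base window held 5 KLF matches and 1 ACGTG match.
Slc2a1: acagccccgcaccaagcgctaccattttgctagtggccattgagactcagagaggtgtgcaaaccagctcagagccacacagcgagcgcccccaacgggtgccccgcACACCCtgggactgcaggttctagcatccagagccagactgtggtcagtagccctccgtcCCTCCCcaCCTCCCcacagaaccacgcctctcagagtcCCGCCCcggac

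Hexokinase traps glucose in the cell as glucose 6-phosphate. Hk1, the form that most brain cells use, lies on chromosome 10 from 62268855 to 62379908 (minus strand), and Hk2, a form more readily induced, on chromosome 6 from 82725025 to 82774454 (minus strand). Hk1 was at 3336, 4197, 3787 and 3097 normalized counts in the control cultures, against 3819, 5422 and 3806 in the knockout cultures. Knockout replicate 2 was the highest of the 7 libraries and the other knockouts lay within the range of the controls. The log2 fold change was 0.27 (SE 0.16, interval -0.09 to 0.64, adjusted p = 0.257).

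The Hk1 level also went with a property of the libraries that crosses the groups. Reads of ribosomal RNA tend to be assigned to Gm42418, Gm23935 and Lars2, which took 6.03%, 6.50% and 7.56% of the counts in control replicates 2 and 3 and knockout replicate 2, and 14.1% to 18.0% in the other 4 libraries. Within each group the Hk1 count was higher in the libraries with the smaller share. With that share as a term beside the group, Hk1 had a log2 fold change of 0.43 (adjusted p = 0.00381 in edgeR's quasi-likelihood test). With single libraries left out it lay between 0.08 and 0.37, lowest without knockout replicate 2. With astrocyte, fibroblast and mural cell, microglia and neuron markers as a term it was 0.09, 0.003, 0.27 and -0.28. Over all 21 alternatives its adjusted p ranged from 0.00381 to 0.996.

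Hk2 was at 635, 748, 1377 and 619 normalized counts in the control cultures, against 690, 776 and 858 in the knockout cultures. Control replicate 3 stood far above the other 6 libraries, and all 3 knockouts lay within the control range. The log2 fold change was -0.12 with an interval of -0.80 to 0.55 (adjusted p = 0.798), an interval that leaves changes of that size in either direction possible. Without control replicate 3 the log2 fold change was 0.22.

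Phosphofructokinase commits sugar to glycolysis and is built from liver (Pfkl), muscle (Pfkm) and platelet (Pfkp) type subunits. Pfkm lies on chromosome 15 from 98092589 to 98132447 (plus strand), Pfkl on chromosome 10 from 77986947 to 78010083 (minus strand) and Pfkp on chromosome 13 from 6579768 to 6648777 (minus strand). Pfkm was at 5179, 6289, 4672 and 5206 normalized counts in the control cultures, against 7059, 8662 and 6404 in the knockout cultures. The highest control, replicate 2, lay just below the lowest knockout, replicate 3. The mean rose from 5336 ± 681 (SD, n = 4) to 7375 ± 1162 (SD, n = 3), with a log2 fold change of 0.47 (SE 0.13, interval 0.16 to 0.77, adjusted p = 0.0386 in edgeR's quasi-likelihood test). This p is close to the threshold: it was 0.0634, 0.0695 and 0.0652 without control replicate 1, 3 or 4, and 0.0679 and 0.121 without knockout replicate 1 or 2. It was 0.0625 with total counts as the only scaling and 0.0607 without a filter on low counts, and ranged from 0.00537 to 0.976 over all 21 alternatives. Its log2 fold change was 0.04 with astrocyte markers as a term beside the group, 0.03 with neuron markers and 0.14 with fibroblast and mural cell markers, and the gene passed in none of these 3 fits. In the windows before its 4 annotated starts, Pfkm had 0, 2, 5 and 3 KLF matches. The windows with 2 and 5 matches overlap, so that some matches are counted in both. In GENCODE M21, Gm26513 on the same strand shares 341 exon bases with Pfkm, which may lie outside the exons counted. Gm26513 held at most 23.0 normalized counts in any library.

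The other phosphofructokinase subunit genes did not pass. Pfkl was at 1516, 2137, 2763 and 1709 normalized counts in the control cultures, against 1898, 2706 and 1890 in the knockout cultures. As for Hk1, control replicates 2 and 3 and knockout replicate 2, the libraries with the smaller ribosomal RNA share, were the highest within their groups. The log2 fold change of Pfkl was 0.09 (interval -0.44 to 0.62, adjusted p = 0.807). Pfkp had 2036, 2262, 2275 and 1856 normalized counts in the controls against 1746, 2042 and 1956 in the knockouts, which overlap. Its log2 fold change was -0.14 (interval -0.35 to 0.08, adjusted p = 0.339). In GENCODE M21, Pfkp shares 748 exon bases with Pitrm1 on the opposite strand, but the counted exons of Pfkp are shorter and may not hold these bases. The strand setting of the counting is not given in the sources used here. Any reads counted in these bases therefore cannot be assigned with certainty.

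Pkm encodes pyruvate kinase of muscle type, which makes pyruvate and ATP in the last step of glycolysis. It lies on chromosome 9 from 59656368 to 59679375 (plus strand) and had the highest level per length of the 10 genes. It was at 31167, 35959, 44070 and 34440 normalized counts in the control cultures, against 31532, 35829 and 31557 in the knockout cultures. Control replicate 3 was again the highest library, and the knockouts lay within the control range. The log2 fold change was -0.14 (SE 0.12, interval -0.43 to 0.14, adjusted p = 0.450), and without control replicate 3 it was -0.04. Counts per gene do not separate the spliced M1 and M2 forms of Pkm, so that a switch between them would not be visible. Gm49759 shares 767 exon bases with Pkm on the same strand and held 231 to 455 normalized counts, so that reads in these bases may not have been counted for Pkm.

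**Figure D2:**
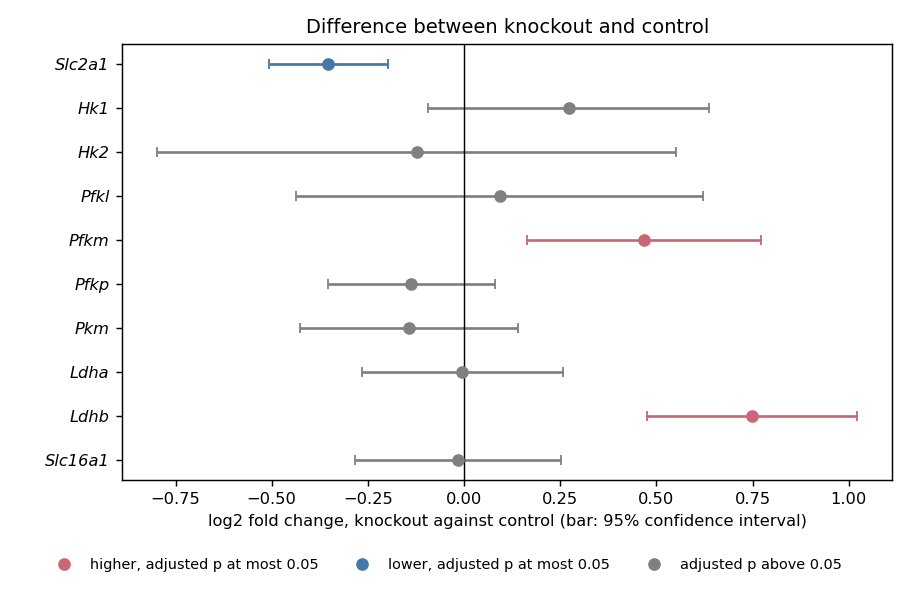
Log2 fold change of each gene in the knockout against the control (x axis) with its 95% confidence interval as a bar. The intervals of Slc2a1, Pfkm and Ldhb lie off 0, and those of the other 7 genes include 0, widest in Hk2 at -0.80 to 0.55.

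Lactate dehydrogenase is built from A subunits (Ldha), which are known for tissues that make lactate, and B subunits (Ldhb), known for tissues that burn it. Ldhb lies on chromosome 6 from 142490249 to 142507957 (minus strand) and had the smallest p of the 10 genes. It was at 4171, 4466, 3916 and 3129 normalized counts in the control cultures, against 6214, 6999 and 6541 in the knockout cultures. All 3 knockouts lay well above the highest control. The mean rose 1.68-fold, from 3920 ± 573 (SD, n = 4) to 6585 ± 394 (SD, n = 3), with a log2 fold change of 0.75 (SE 0.12, interval 0.47 to 1.02, adjusted p = 0.00533 in edgeR's quasi-likelihood test). When single libraries were dropped, the log2 fold change lay between 0.68 and 0.82 and the adjusted p was at most 0.0259. Over all 21 alternatives the log2 fold change ranged from 0.24 to 0.83 and the adjusted p from 1.29e-06 to 0.521, and the call was lost in 3 of them, with astrocyte, neuron, or fibroblast and mural cell markers as a term.

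Ldha lies on chromosome 7 from 46841475 to 46855627 (plus strand). It was at 7580, 7614, 10316 and 8745 normalized counts in the control cultures, against 8765, 8349 and 8499 in the knockout cultures. The knockouts lay within the control range, whose upper end was control replicate 3. The group means were 8564 ± 1287 (SD, n = 4) and 8538 ± 211 (SD, n = 3). The log2 fold change was -0.0045 (interval -0.27 to 0.26, adjusted p = 0.981), and its sign changed with the scaling, to 0.04 with upper quartile normalization.

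The stretches before both genes are shown because Ldhb passed the test and its paralog Ldha did not, which does not show that the paralogs differ in response. Capitals mark KLF and ACGTG matches on either strand. The 250 bases before the Ldhb start, at chr6:142507958-142508207 on the minus strand, held 1 KLF match, read as GGGAGG. The 250 bases before the upstream one of both RefSeq starts of Ldha, which lies inside the wider gene span given above, at chr7:46845554-46845803 on the plus strand, held 4 KLF matches, of which the last pair overlaps, and 5 ACGTG matches, where a CACGTG counts on both strands. The window before the other annotated Ldha start held neither.
Ldhb: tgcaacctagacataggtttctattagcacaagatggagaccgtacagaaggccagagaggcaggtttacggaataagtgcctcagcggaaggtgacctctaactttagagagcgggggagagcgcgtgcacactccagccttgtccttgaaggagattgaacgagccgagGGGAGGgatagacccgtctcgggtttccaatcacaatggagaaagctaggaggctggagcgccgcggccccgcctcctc
Ldha: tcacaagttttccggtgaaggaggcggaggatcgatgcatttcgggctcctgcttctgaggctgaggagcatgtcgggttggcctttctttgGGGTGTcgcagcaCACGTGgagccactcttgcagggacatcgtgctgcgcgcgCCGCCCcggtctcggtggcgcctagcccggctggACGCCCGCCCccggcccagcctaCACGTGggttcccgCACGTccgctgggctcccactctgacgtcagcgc

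Slc16a1 encodes MCT1, the transporter through which oligodendrocytes are known to release lactate. It lies on chromosome 3 from 104638668 to 104658462 (plus strand). Slc16a1 was at 3687, 4232, 3685 and 2938 normalized counts in the control cultures, against 3537, 3468 and 3784 in the knockout cultures. The controls spread more widely than the knockouts, which lay inside their range. The log2 fold change was -0.02 (SE 0.12, interval -0.28 to 0.25, adjusted p = 0.941), and its sign changed with the scaling, to 0.03 with upper quartile normalization. With neuron markers as a term beside the group it was -0.40, and Slc16a1 did not pass.

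Levels were compared between genes per length, as FPKM, here the counts per kilobase of exon relative to the scaled library size. In the controls the mean level was 166 for Pkm, 58.9 for Ldha, 56.8 for Ldhb and 41.1 for Pfkm. It was 18.7 for Slc16a1, 15.8 for Slc2a1, 10.5 for Pfkl, 9.61 for Hk1, 5.10 for Pfkp and 3.22 for Hk2. The control ranges of neighbours in this order overlapped between Ldha and Ldhb, Ldhb and Pfkm, Slc16a1 and Slc2a1, Pfkl and Hk1, and Pfkp and Hk2, and were apart elsewhere. In the knockouts Ldhb, at 95.4, stood above Ldha, at 58.7, and Pfkm was at 56.8. Hk1 was at 11.6 and Pfkl at 11.2, with overlapping ranges. The order of Ldhb and Ldha in the knockouts rests on the division by length. In normalized counts, not divided by length, the knockout means were 8538 for Ldha and 6585 for Ldhb. Exon lengths are those in the count files. GENCODE M21 gives the same length for 7 of the genes but longer ones for Pfkl (6675 against 4395 bases), Pfkm (3340 against 2957) and Pfkp (13401 against 9395), so that levels per length and shares that include these 3 genes depend on the annotation.

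From the same levels per length, the share of each isozyme in the sum of its paralogs among the 10 genes was taken in every library. Ldha made up 46.3%, 44.7%, 55.5% and 57.0% of the lactate dehydrogenase transcripts in the controls. In the knockouts it made up 40.1%, 36.1% and 38.1%. Each knockout share lay below each control share, and the mean fell from 50.9% ± 6.28 (SD, n = 4) to 38.1% ± 1.97 (SD, n = 3). Without the division by length, the Ldha share was 68.4% ± 5.42 in the controls and 56.5% ± 2.06 in the knockouts. Pfkm made up 75.7%, 74.5%, 64.5% and 75.0% of the phosphofructokinase transcripts in the controls, against 79.4%, 77.9% and 77.2% in the knockouts. Pfkp made up 9.37%, 8.44%, 9.88% and 8.42% against 6.18%, 5.78% and 7.42%, also without overlap. The shares of Pfkl (18.5% ± 4.83 against 15.4% ± 0.997) and of Hk2 in the sum of Hk1 and Hk2 (24.5% ± 6.50 against 20.6% ± 3.69) overlapped. Hk3, a hexokinase on the wider lists, is left out of that sum, although at 2.87 to 9.17 FPKM in the controls and 2.45 to 5.12 in the knockouts it was at a level like that of Hk2. Its highest library was also control replicate 3. In a two-sided exact permutation test over the 35 arrangements of the group labels, p was 0.0571 for the Ldha share, 0.0857 for Pfkm, 0.0286 for Pfkp, 0.371 for Pfkl and 0.514 for Hk2. Adjusted over these 5 shares, the exact permutation p was 0.143 for Ldha, Pfkm and Pfkp, and no share passed 0.05. The smallest p that 35 arrangements allow is 0.0286, and a lone share at that p cannot come below 0.143 when adjusted over 5 shares, so that missing the threshold here says little. Without control replicate 3, the difference between the group means went from 5.75 to 3.10 percentage points for the Pfkm share, from -3.19 to -0.82 for Pfkl and from -3.90 to -0.68 for Hk2, and without knockout replicate 2 it was -2.08 for Hk2.

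**Figure D3:**
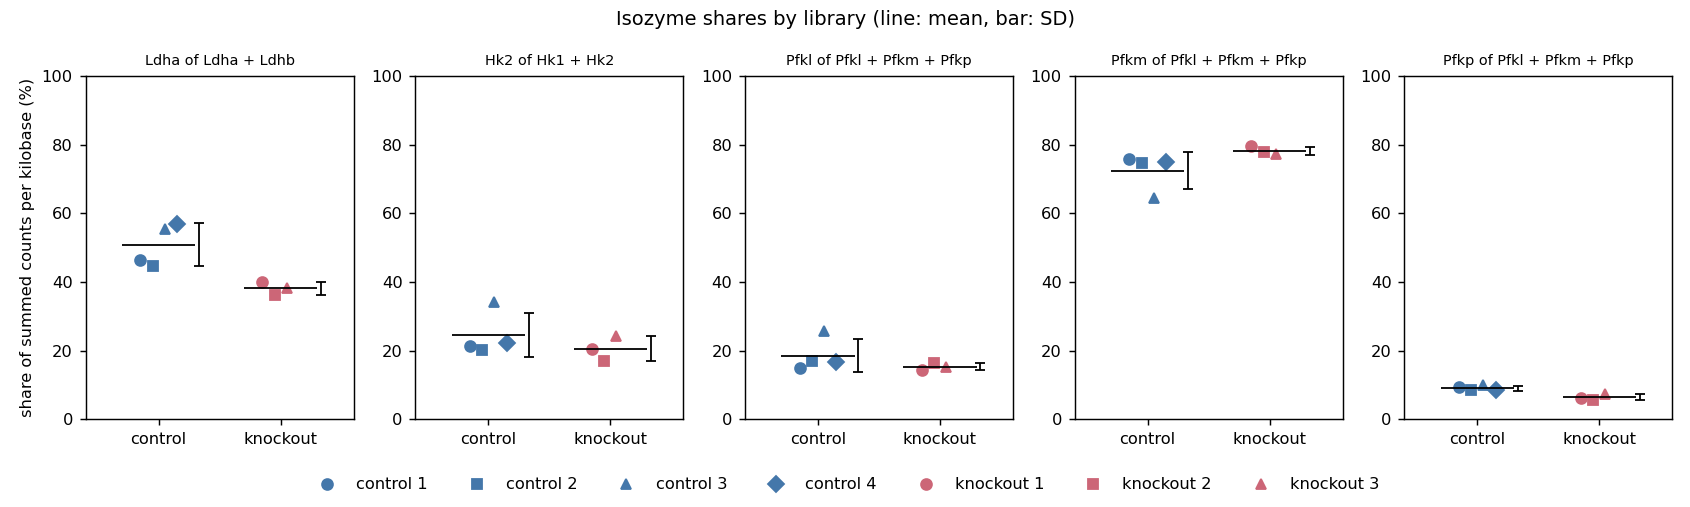
Share of an isozyme in the summed counts per kilobase of the genes named above each panel (y axis, 0 to 100%) in each library, with the group mean as a line and the SD as a bar. The Ldha and Pfkp shares of all 3 knockouts lie below those of all 4 controls and the Pfkm shares above, and control replicate 3 stands apart in the Hk2, Pfkl and Pfkm shares.

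Markers of other cell types moved with the groups or with single libraries, and were set beside the 10 genes. Of 10 astrocyte markers 7 were higher in the knockout, with a summed level of 150658 to 169846 normalized counts in controls and 219764 to 249834 in knockouts. Of 11 tested neuron markers 9 were higher (6386 to 10732 against 17289 to 25988 over the 12 on the list). Of 10 fibroblast and mural cell markers 1 was lower, and their sum was 26414, 21163, 81439 and 65112 in the controls, against 16868, 11705 and 23131 in the knockouts. Of 8 tested endothelial markers 1 was lower (1975 to 3190 against 1579 to 2071 over the list). No marker on these lists was at 0 in all 7 libraries. With the mean log2 level of the astrocyte markers as a term beside the group, Ldhb had a log2 fold change of 0.47 (adjusted p = 0.418), Pfkm of 0.04 (adjusted p = 0.976) and Slc2a1 of -0.33 (adjusted p = 0.383). With the neuron markers these values were 0.24 (adjusted p = 0.521), 0.03 (adjusted p = 0.961) and -0.34 (adjusted p = 0.421). With the fibroblast and mural cell markers they were 0.54 (adjusted p = 0.0825), 0.14 (adjusted p = 0.517) and -0.35 (adjusted p = 0.112). Since the astrocyte and neuron sums of the groups did not overlap, their part and that of the genotype cannot be told apart in 7 libraries.

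Microglia markers went with 1 library instead of a group. They summed to 24541, 20120, 92084 and 22736 normalized counts in control replicates 1 to 4, against 20616, 24460 and 43239 in knockout replicates 1 to 3. In edgeR's quasi-likelihood test 0 of the 11 markers passed, and 0 had an unadjusted p under 0.05. Control replicate 3, the highest, was also the highest library for Hk2, Pfkl, Pkm and Ldha. With the mean log2 level of the microglia markers as a term beside the group, none of these 4 genes passed (adjusted p of at least 0.536), at log2 fold changes of 0.06 for Hk2, 0.18 for Pfkl, -0.10 for Pkm and 0.04 for Ldha. In the same fit Ldhb, Pfkm and Slc2a1 kept adjusted p-values of 0.00736, 0.0277 and 0.0131.

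**Figure D4:**
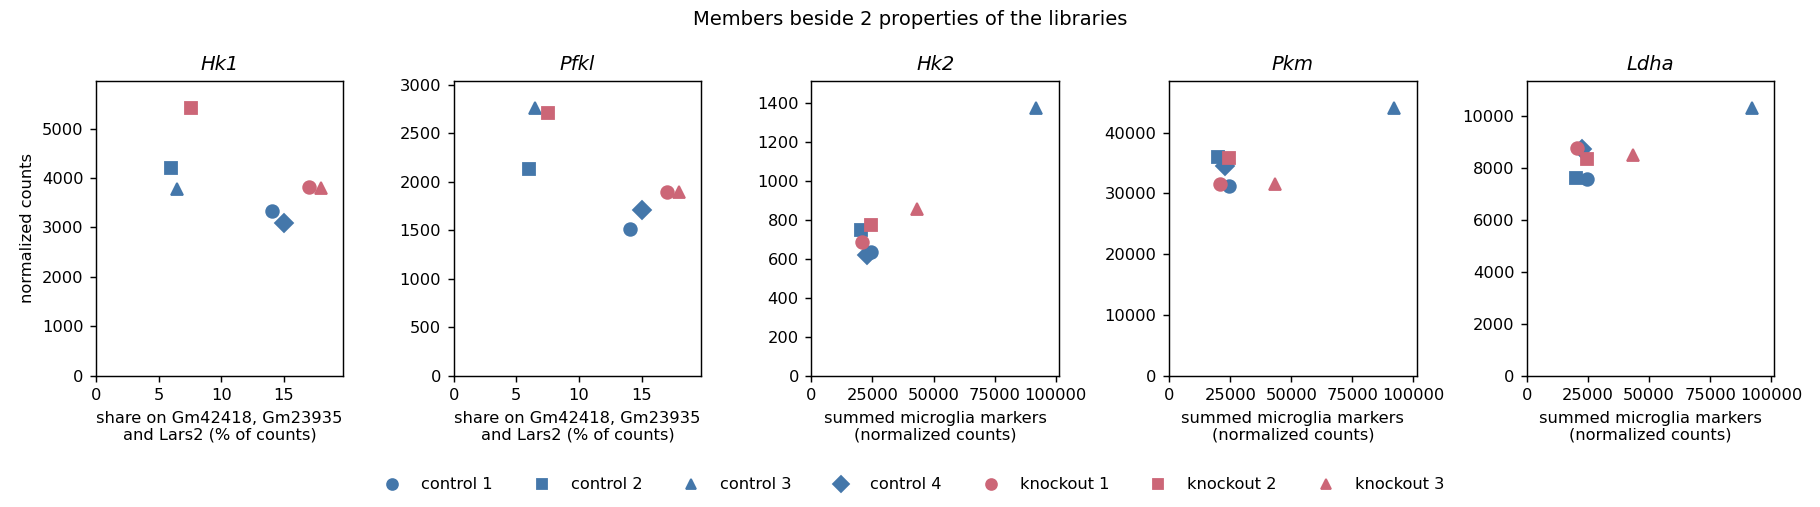
Normalized counts (y axis, from 0) of Hk1 and Pfkl against the share of counts on Gm42418, Gm23935 and Lars2, and of Hk2, Pkm and Ldha against the summed microglia markers, with 1 point per library. Control replicates 2 and 3 and knockout replicate 2, with shares under 10%, are the highest of their group in Pfkl, and control replicate 3, with a marker sum of 92084, is the highest in Hk2, Pkm and Ldha.

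The wider pathway was followed in 9 lists holding 113 genes, of which 103 were tested. In edgeR's quasi-likelihood test 19 of them (18.4%) were higher and 14 (13.6%) lower in the knockout, against 11.6% and 12.2% of all tested genes. Of those among the 103 that passed, only Pdk4, Ndrg1 and Adm also reached an absolute log2 fold change of 1. These were 1 higher and 2 lower, where 3.97% of all tested genes met both thresholds upwards and 3.08% downwards. Genes named below beyond these 3 and the 2 with the highest mean normalized count of each list were chosen after their values were seen. Without knockout replicate 2, the largest library, 8 genes were higher and 9 lower. They were 12 higher without knockout replicate 3 and 9 lower without knockout replicate 1. With astrocyte markers as a term beside the group 0 of the 103 were higher and 3 lower, with fibroblast and mural cell markers 1 and 6, and with neuron markers 0 and 1, so that most of the calls on these lists given next were lost in these fits.

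Among the other glycolysis enzymes 14 of 18 were tested, of which 1 was higher and 2 were lower. Gapdh, glyceraldehyde 3-phosphate dehydrogenase, was at 27833 ± 2292 normalized counts in controls and 28905 ± 1235 in knockouts (SD, n = 4 and 3), and Eno1, enolase, at 35404 ± 2513 and 32452 ± 944. The aldolase gene Aldoc was higher (log2 fold change 0.48, adjusted p = 0.0437), and it is also on the astrocyte list. Adpgk, an ADP-dependent glucokinase, and Bpgm, which makes 2,3-bisphosphoglycerate, were lower (-0.54 and -0.43 on the log2 scale). Of 9 tested glucose transporters other than Slc2a1, the neuronal Slc2a3 (log2 fold change 0.62) and the insulin-responsive Slc2a4 (0.70) were higher. Slc2a8 and Slc2a13 had log2 fold changes of -0.14 and 0.16 and did not pass.

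Of 6 tested genes of lactate transport and metabolism, 3 were lower. Slc16a7, the gene of the lactate and pyruvate transporter MCT2, went from 1814 ± 218 to 1226 ± 172 normalized counts (SD, n = 4 and 3, log2 fold change -0.57, adjusted p = 0.0193 in edgeR's quasi-likelihood test). Emb, embigin, a chaperone of such transporters, went from 607 ± 73.9 to 404 ± 6.93 (log2 fold change -0.59, adjusted p = 0.0105). Ldhd, a dehydrogenase of D-lactate, went from 222 ± 40.0 to 126 ± 1.55 (log2 fold change -0.82, adjusted p = 0.0137). Bsg, basigin, the partner of MCT1, did not pass at a log2 fold change of -0.12. The median of this list was -0.58 on the log2 scale.

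Among 15 genes of pyruvate entry into mitochondria, 5 were higher and 1 was lower. Pdk4, a kinase that switches pyruvate dehydrogenase off, went from 99.9, 79.4, 111 and 90.8 normalized counts in the controls to 159, 235 and 230 in the knockouts (log2 fold change 1.13, SE 0.19, adjusted p = 0.00672 in edgeR's quasi-likelihood test). The sister kinase Pdk1 was higher at 0.50 and Pdk3 lower at -0.61 on the log2 scale. Pdp1, the phosphatase that switches the complex back on, was higher at 0.61, and so were the complex subunits Pdha1 and Dld at 0.25 and 0.22, while Pdhb did not pass at 0.16. Of 9 tested regulators of flux, the arrestin-like Arrdc4 was higher (0.69) and the bisphosphatase Tigar lower (-0.27). Pfkfb3 and G6pc3 did not pass, at -0.10 and 0.07.

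In the pentose phosphate pathway 1 of 8 genes passed, the transaldolase gene Taldo1. It went from 22347 ± 1306 to 15281 ± 811 normalized counts (SD, n = 4 and 3, log2 fold change -0.55, adjusted p = 0.0022 in edgeR's quasi-likelihood test). Transketolase, Tkt, did not pass at -0.02. Glycogen genes had the highest list median, 0.30 on the log2 scale, with 6 of 14 higher and 1 lower. Pygb, the brain glycogen phosphorylase, was higher at 0.62 (adjusted p = 0.0185), and Ugp2, which makes UDP-glucose, did not pass at 0.16. The gene that was lower was Gyg, glycogenin, at -0.37.

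Of 13 transcription and oxygen-sensing genes, Myc (0.63), Epas1 (0.44), Vhl (0.19) and Ppargc1a (0.79) were higher. Hif1a had a log2 fold change of -0.24 (adjusted p = 0.138). Of 15 genes known to respond to low oxygen, 5 were lower. Ndrg1, which is also abundant in myelinating glia, went from 1919, 2193, 1684 and 2015 normalized counts in the controls to 478, 348 and 487 in the knockouts (log2 fold change -2.16, SE 0.15, adjusted p = 0.000161). Adm, adrenomedullin, went from 149 ± 74.1 to 48.5 ± 17.0 (log2 fold change -1.62, adjusted p = 0.0376 in edgeR's quasi-likelihood test). Vegfa, Ero1l and Bnip3 were lower at -0.90, -0.96 and -0.36, and Bnip3l and Mxi1 did not pass at -0.05 and 0.08. Car9 was at -2.71 and did not pass (adjusted p = 0.186 in edgeR's quasi-likelihood test). It had 330 normalized counts in control replicate 4 and at most 28.6 in any other library.

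**Figure D5:**
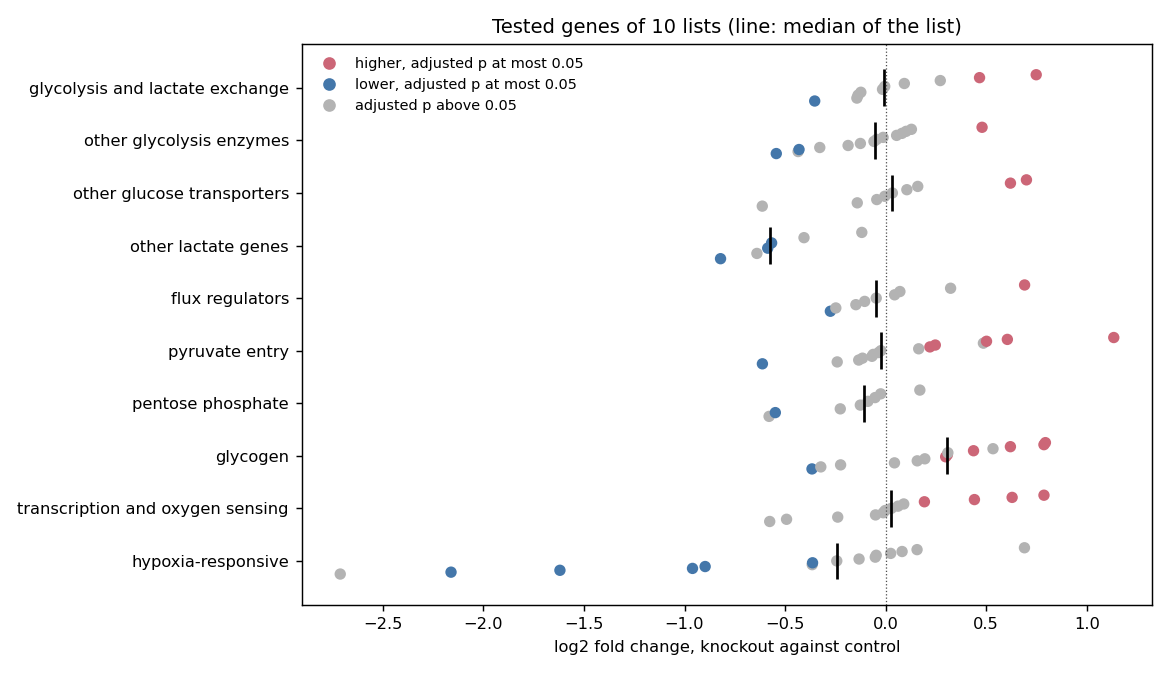
Log2 fold change in the knockout against the control (x axis) of every tested gene of the 10 genes and the 9 wider lists, with the median of each list as a line. The medians reach from -0.58 in the other lactate genes to 0.30 in the glycogen genes, and the 10 genes lie between -0.35 and 0.75.

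The genes whose pattern over the 7 libraries came closest to that of Ldhb were Peg13, Hdac4 and Smo. Closeness was measured as the root mean square difference of mean-centred log2 CPM, which was 0.0422, 0.0439 and 0.0489. Like Ldhb, these genes were lowest in control replicate 4 and highest in knockout replicate 2.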

How the data were processed

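RNA-seq libraries from 7 cultures of primary mouse oligodendroglia (4 control, 3 knockout) were analysed. The authors trimmed reads with Trimmomatic 0.36, mapped them with STAR 2.5.2b to GRCm38 and assigned uniquely mapped reads to exons with Subread 1.5.2, versions being those of the submitters' processing notes, and the deposited values are raw counts per gene. The annotation release and the strand setting are not given in the sources used here. Replicates were not pooled, and groups follow the genotype labels. The libraries held between 24507471 and 59596479 counts on genes.

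The statistics used edgeR 4.0.16 under R 4.3.3: filterByExpr by group, TMM scaling, a robust quasi-likelihood fit with the group as its term, and Benjamini-Hochberg adjustment over 18352 genes. All tests were two-sided. The members of the gene set, the wider lists and the marker lists were chosen with earlier results of these data known. By rule, named genes were the 10 genes, of each wider list the 2 with the highest mean normalized count and those that passed at an adjusted p of 0.05 with a log2 fold change of 1 or more in size, the 3 genes nearest to the leading gene, and Klf13. The other genes of the wider lists that are named were chosen after their values were seen. Isozyme shares were compared by an exact permutation test. Alternatives were DESeq2 1.42.0 (the test of the study), its size factors, voom of limma 3.58.1, other scalings and filters, the replicate number as a block, the ribosomal RNA share or astrocyte or fibroblast and mural cell markers as a term, each library left out in turn, and, chosen after seeing the data, microglia or neuron markers as a term. The scripts were tested on simulated data.

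What same-numbered libraries have in common is not given in the sources used here. Over all tested genes, deviations from the group means correlated at 0.113, 0.463 and 0.168 in the 3 same-numbered pairs and at -0.529 to 0.197 between libraries of different numbers (genes are not independent replicates). Since 0.113 and 0.168 lie within the range of libraries of different numbers, these values do not show that the numbers pair the libraries. A pairing by number was assumed. The pairing enters 1 alternative only: the tests in the results above do not use it. Gene positions are those of the count files, on GRCm38. Exon overlaps come from GENCODE M21, and promoter sequences from RefSeq on GRCm38.p6, which matched all 10 genes.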

Additional observations from a re-analysis of the deposited data

Results flagged for a closer look

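A test for single samples apart from the rest was run on the 4 controls for the 10 genes and the 5 isozyme shares, 15 tests in all, and chance marks about 1 in 20 groups. In each case below the gap between control replicate 3 and its nearest neighbour, as a share of the range of the controls, was above Dixon's 95% critical value. Hk2 had 1377 normalized counts in control replicate 3. The Hk2 share of the summed Hk1 and Hk2 level per length, which leaves out Hk3, was 34.2% there. Hk3 was at 9.17 FPKM in that library, above its other controls. The Pfkm share of the phosphofructokinase level per length was 64.5% in the same library. Control replicate 3 was also the library with the highest summed microglia markers, at 92084 normalized counts, and the part of these cells in the 3 values was not tested.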

How the results depend on the processing

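Of the 21 alternatives, 11 kept 2 of the 10 genes higher or made it 3, and 17 kept 1 lower. DESeq2's Wald test, its size factors and voom called the same 3 genes. The number of higher genes was 1 with total counts only and 1 without a filter on low counts. With astrocyte, fibroblast and mural cell, or neuron markers as a term it was 0, 0 and 0 (1, 1 and 0 at an unadjusted p under 0.05), and the number of lower genes was 0, 0 and 0 (0, 1 and 1 at an unadjusted p). With each library left out, 1 to 2 genes were higher and 0 to 1 lower. In these 3 fits, 16, 234 and 23 of all tested genes were higher and 216, 691 and 295 lower, and leaving out libraries gave 850 to 1843 higher and 1254 to 2032 lower. Of the wider lists, 0, 1 and 0 genes were higher (8, 11 and 4 at an unadjusted p) and 3, 6 and 1 lower in these fits, and leaving out libraries gave 8 to 18 higher and 9 to 14 lower. The cause was not tested.

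With the replicate number as a block, where control replicate 4 has no partner, Slc2a1 had a log2 fold change of -0.34 (adjusted p = 0.0285), Pfkm of 0.45 (adjusted p = 0.00537) and Ldhb of 0.65 (adjusted p = 0.00293). The block turned Ldha to 0.0205 and changed no call among the 10 genes. The isozyme shares kept their sign in all 9 alternatives, the block included, but not their size: leaving out control replicate 3 brought the Pfkm, Pfkl and Hk2 differences to 3.10, -0.82 and -0.68 percentage points, and shares of raw counts, not divided by length, brought the Pfkp difference from -2.56 to -5.39.

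The sign of genes that did not pass turned in several fits, in none of which the gene passed. Ldha was at 0.0386 with upper quartile normalization, 0.0409 with total counts, 0.0047 with at least 10 counts in every library, 0.0139 with the ribosomal RNA share, 0.52 with astrocyte, 0.25 with fibroblast and mural cell, 0.0447 with microglia and 0.32 with neuron markers, 0.0063 with voom, and -0.0574 to 0.0957 with each library left out. Slc16a1 was at 0.0269, 0.022 and 0.0415 with upper quartile normalization, total counts and the ribosomal RNA share, and at -0.083 to 0.0654 with libraries left out. Slc16a1 kept its sign with astrocyte, fibroblast and mural cell, and neuron markers, at -0.22, -0.16 and -0.40. Hk2 was at 0.0938 with the ribosomal RNA share, 0.91, 0.32, 0.0649 and 0.097 with astrocyte, fibroblast and mural cell, microglia and neuron markers, and -0.23 to 0.22 with libraries left out. Hk1 was at -0.28 and Pfkl at -0.16 with neuron markers, Pfkl at -0.10 to 0.28 with libraries left out, and Pkm at 0.22 with astrocyte markers. The confidence intervals given above belong to the fit with the group as its only term. Values with marker terms lie outside them for Ldha, Ldhb, Hk1, Hk2, Pfkm, Pfkp, Pkm and Slc16a1. Pfkp was at -0.38 with neuron markers.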

Other observations

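Summed per length, chosen after the isozyme shares were seen, the lactate dehydrogenase genes were at 116 ± 9.30 FPKM (from the scaled library sizes) in the controls (SD, n = 4) and at 154 ± 4.32 in the knockouts (SD, n = 3), without overlap. The phosphofructokinase genes were at 56.7 ± 5.66 and 72.6 ± 11.5, and Hk1 and Hk2, without Hk3, at 12.8 ± 2.24 and 14.6 ± 2.503. In a two-sided exact permutation test, p was 0.0286, 0.0857 and 0.4, and it was 0.0858, 0.129 and 0.4 when adjusted over these 3 sums.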
